A study of Mus musculus with 10 samples.

Results

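The brush border is the carpet of microvilli on the lumenal face of the absorptive enterocyte. Chromatin accessibility was described here for 8 genes of its structure, its enzymes and nutrient transport. They were found by their Ensembl IDs among 44580 gene IDs in a table of ATAC-seq counts. The 8 genes held 116 of the 245885 peaks that carried a gene ID. They were Vil1, which encodes the actin-bundling protein villin, the enzyme genes Sis, Lct, Alpi and Anpep, and the transporter genes Slc5a1, Slc2a2 and Slc15a1. None of them passed an adjusted p under 0.05 between genotypes, by the sum of their peaks or by single peaks. Over all features tested with edgeR, 2.9% of gene IDs passed as higher and 1.01% as lower in knockout mice, and 0% of peaks passed.

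The cells were intestinal epithelial cells (IECs), sorted by flow cytometry from WT mice and from mice with a global deletion of Zip14 (gene Slc39a14), a transporter of zinc and other metal ions. The labels give the tissue as duodenum, while the study's methods for these cells also include the upper jejunum. The WT group had 5 mice (WT1 to WT5) and the KO group had 5 mice (KO6 to KO10). The study describes its animals as young adults of a C57BL/6 background bred from heterozygous parents, and as females unless stated otherwise. The deletion was present in every tissue of the KO mice, so effects within the IECs and effects from other organs cannot be told apart. ATAC-seq reads come from DNA that a transposase can reach, and a count rises with the accessibility of a region. In a sorted population, fewer enterocytes and less open chromatin per enterocyte cannot be told apart.

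Villin, with other actin-binding proteins, holds the core of the microvillus together. Enzymes anchored in its membrane finish the digestion of sugars and peptides, and transporters beside them carry the products into the cell. Genes of this kind come on as crypt cells mature into villus enterocytes, and transcription factors of the HNF1, HNF4, CDX and GATA families are known to act at many of them.

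Total counts over peaks with a gene ID ranged from 5169108 to 15671557 for WT (median 8605355) and from 4690971 to 6043771 for KO (median 5617646). The counts of a gene were summed over its peaks and given as CPM, counts scaled to library size after TMM correction. The summed counts of single members in a mouse lay between 143 (Anpep in KO6) and 4441 (Slc2a2 in WT5). The sources used here paired no ID with Slc39a14, so its own peaks were not analysed, nor were those of any of 21 cell type marker genes. The genotypes and the cell type were therefore taken from the labels and not checked with these counts.

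The table gives a gene ID for each peak and no position, width or distance to a start site. Levels of different genes were therefore not compared per length. RefSeq places Vil1 at chr1:74409384-74435560 (plus strand), Lct at chr1:128284756-128328318 (minus), Alpi at chr1:87098002-87101606 (minus), Sis at chr3:72888557-72967863 (minus) and Slc2a2 at chr3:28697903-28728361 (plus) in GRCm38.p6, the assembly of the mm10 build named in the labels. Slc5a1 lies at chr5:33104219-33162699 (plus), Anpep at chr7:79821803-79848210 (minus) and Slc15a1 at chr14:121459621-121505254 (minus). The order of peaks was inferred. The entries were taken to stand in the order of numbers sorted as text, and peaks were put back in numerical order. In that order the peaks of each of the 8 genes were consecutive, and 3 of 3 pairs of members next to each other on a chromosome stood in their RefSeq order. The peak numbers below, and the side of a gene they stand for, rest on this assumption. Peaks are numbered here from the 5′ side of each gene, and which peak covers the start site was not determined.

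The 250 bases before the RefSeq start of 3 genes are shown, those of the 8 members with the most kinds of motif among 5 that were searched for on both strands. The motif searched for HNF1 factors was spelled GTTAAT. For CDX factors the letters were TTTAT. The GATA factor motif was given as AGATAA, and that of HNF4 factors was AAAGTCC. The TATA box was searched for as TATAAA. Capitals mark the matches. The CDX motif overlaps a TATA box that lies on the opposite strand, and it can overlap the GATA motif in the same way.

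Sis promoter (chr3:72967864-72968113, minus strand, GRCm38.p6): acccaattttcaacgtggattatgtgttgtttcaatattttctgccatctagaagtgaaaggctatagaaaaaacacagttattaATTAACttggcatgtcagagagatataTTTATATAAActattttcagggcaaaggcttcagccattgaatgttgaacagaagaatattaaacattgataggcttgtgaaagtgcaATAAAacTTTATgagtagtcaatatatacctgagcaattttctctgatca
Lct promoter (chr1:128328319-128328568, minus strand, GRCm38.p6): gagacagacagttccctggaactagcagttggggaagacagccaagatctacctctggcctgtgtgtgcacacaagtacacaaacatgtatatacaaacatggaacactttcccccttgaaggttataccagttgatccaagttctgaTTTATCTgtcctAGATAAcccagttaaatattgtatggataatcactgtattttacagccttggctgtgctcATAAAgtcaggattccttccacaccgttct
Alpi promoter (chr1:87101607-87101856, minus strand, GRCm38.p6): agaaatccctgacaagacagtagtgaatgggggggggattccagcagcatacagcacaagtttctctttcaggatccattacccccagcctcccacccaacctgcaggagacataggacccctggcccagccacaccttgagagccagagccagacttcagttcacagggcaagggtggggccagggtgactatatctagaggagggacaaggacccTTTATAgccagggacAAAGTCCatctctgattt

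The Sis promoter held 1 match to the HNF1 motif, 4 to the CDX motif and 2 to the TATA box, and 31.6% of its bases were G or C, against a median of 52.4% over all 32851 RefSeq promoters. In Lct there were 2 matches to the CDX motif and 2 to the GATA motif, and the latter stand close together. Alpi had 1 match each to the CDX motif, the TATA box and the HNF4 motif, the CDX match overlapping the TATA box. At least 3 kinds of motif occurred in Sis and Alpi, and in 4.23% of all promoters. Slc5a1 had 1 match to the HNF4 motif alone, and Vil1, Anpep, Slc2a2 and Slc15a1 had no match in this window. Over all promoters of this length, the HNF1 motif occurred in 6.43%, the CDX motif in 37.3%, the GATA motif in 9.99%, the HNF4 motif in 3.58% and the TATA box in 12.4%. The CDX motif was found in 3 of the 8 members, near its share of all promoters.

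Vil1 (ENSMUSG00000026175) had 9 peaks. Their sum was 211, 221, 253, 223 and 249 CPM in WT1 to WT5 and 181, 238, 213, 195 and 236 CPM in KO6 to KO10. The groups overlapped, with 3 of 5 KO mice inside the WT range and 2 below it. The means were 231 ± 18.5 CPM for WT and 213 ± 25.1 CPM for KO (SD, n = 5 each). This is a log2 fold change of -0.12 (standard error, SE, 0.093, 95% interval -0.32 to 0.07), with an adjusted p of 0.391 (quasi-likelihood test of edgeR, Benjamini-Hochberg adjustment over the 36715 gene IDs tested). An exact two-sided permutation test over the mice gave p = 0.230.

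Sis (ENSMUSG00000027790) encodes sucrase-isomaltase, which splits sucrose and the branch points of starch. It had 39 peaks, the most of the 8 genes. The summed values were 202, 205, 223, 202 and 246 CPM in the WT mice and 119, 190, 192, 197 and 268 CPM in KO6 to KO10. No KO mouse lay inside the WT range. KO6, KO7, KO8 and KO9 were below all WT mice and KO10 was above them, so the KO mice spread more widely than the WT mice. The WT mean was 216 ± 18.9 CPM and the KO mean 193 ± 52.7 CPM (SD, n = 5 each). The log2 fold change was -0.16 (SE 0.142, 95% interval -0.46 to 0.14, adjusted p = 0.470 from edgeR; exact permutation test, p = 0.389). It was -0.03 without KO6 and -0.31 without KO10, with adjusted p of 0.895 and 0.174 from edgeR. KO6 had the lowest level of all 10 mice in 23 of the 31 Sis peaks tested, and KO10 the highest in 17 of them, so both mice stood apart along the gene and not at 1 peak.

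Lct (ENSMUSG00000026354), the gene of lactase, is known for its high activity in the suckling period and its decline after weaning. Over 17 peaks its sum was 46.9, 52.9, 56.5, 38.8 and 42.4 CPM in WT mice and 41.0, 46.3, 41.1, 46.1 and 43.5 CPM in KO mice. All 5 KO mice lay inside the WT range. The means of 47.5 ± 7.27 and 43.6 ± 2.56 CPM (SD, n = 5 each) gave a log2 fold change of -0.12 (SE 0.099, 95% interval -0.33 to 0.09, adjusted p = 0.439 from edgeR; exact permutation test, p = 0.333).

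Alpi (ENSMUSG00000079440) encodes intestinal alkaline phosphatase, a zinc enzyme that removes phosphate from lipopolysaccharide and other substrates. It was the only member with a positive log2 fold change, and it had 5 peaks. Values were 87.4, 95.02, 68.5, 79.1 and 81.0 CPM in WT mice and 90.2, 96.8, 94.3, 83.3 and 82.7 CPM in KO mice. Of the KO mice, 4 lay inside the WT range and 1 above it. Means were 82.2 ± 9.87 and 89.4 ± 6.34 CPM (SD, n = 5 each), a log2 fold change of 0.13 (SE 0.087, 95% interval -0.06 to 0.31, adjusted p = 0.343 from edgeR; exact permutation test, p = 0.214).

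Anpep (ENSMUSG00000039062) encodes aminopeptidase N, a zinc peptidase that trims amino acids from the ends of peptides. It had 1 peak, so the sum and the peak are the same counts. WT mice had 29.5, 47.0, 47.8, 30.4 and 56.0 CPM and KO mice had 24.1, 44.0, 26.8, 43.1 and 49.0 CPM. In each genotype, 2 mice were at or below 30.4 CPM (WT1, WT4, KO6 and KO8) and 3 were at or above 43.1 CPM, with none between, and the genotypes overlapped. The means of 42.1 ± 11.7 and 37.4 ± 11.2 CPM (SD, n = 5 each) gave a log2 fold change of -0.19 (SE 0.193, 95% interval -0.59 to 0.22, adjusted p = 0.536 from edgeR; exact permutation test, p = 0.524). This was the widest interval of the 8 genes.

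Slc5a1 (ENSMUSG00000011034) encodes SGLT1, which brings glucose and galactose in from the lumen together with sodium. The sum of its 5 peaks was 152, 139, 165, 116 and 155 CPM in WT mice and 109, 143, 144, 112 and 131 CPM in KO mice. KO6 and KO9 were below the WT range and the other KO mice inside it. With means of 145 ± 19.1 and 128 ± 16.6 CPM (SD, n = 5 each), the log2 fold change was -0.19 (SE 0.103, 95% interval -0.40 to 0.03, adjusted p = 0.242 from edgeR; exact permutation test, p = 0.159).

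Slc2a2 (ENSMUSG00000027690) encodes GLUT2, the facilitative transporter through which glucose, galactose and fructose leave the enterocyte toward the blood. Over 28 peaks its sum was 271, 281, 290, 233 and 267 CPM in WT mice and 216, 275, 244, 201 and 244 CPM in KO mice. KO6 and KO9 were again the mice below the WT range. Means were 268 ± 21.8 and 236 ± 28.7 CPM (SD, n = 5 each). The log2 fold change of -0.19 (SE 0.095, 95% interval -0.38 to 0.01) had the lowest adjusted p of the members, 0.210 from edgeR (exact permutation test, p = 0.0952). Its unadjusted p was 0.0658 in edgeR and 0.0408 in DESeq2.

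Slc15a1 (ENSMUSG00000025557) encodes PEPT1, which takes up dipeptides and tripeptides with protons. Its 12 peaks together had 108, 101, 141, 99.7 and 124 CPM in WT mice and 98.9, 129, 106, 92.5 and 115 CPM in KO mice. Of the KO mice, 3 lay inside the WT range, with KO6 and KO9 under it. The means of 115 ± 17.3 and 108 ± 14.1 CPM (SD, n = 5 each) gave a log2 fold change of -0.09 (SE 0.105, 95% interval -0.31 to 0.13, adjusted p = 0.583 from edgeR; exact permutation test, p = 0.524).

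**Figure D1:**
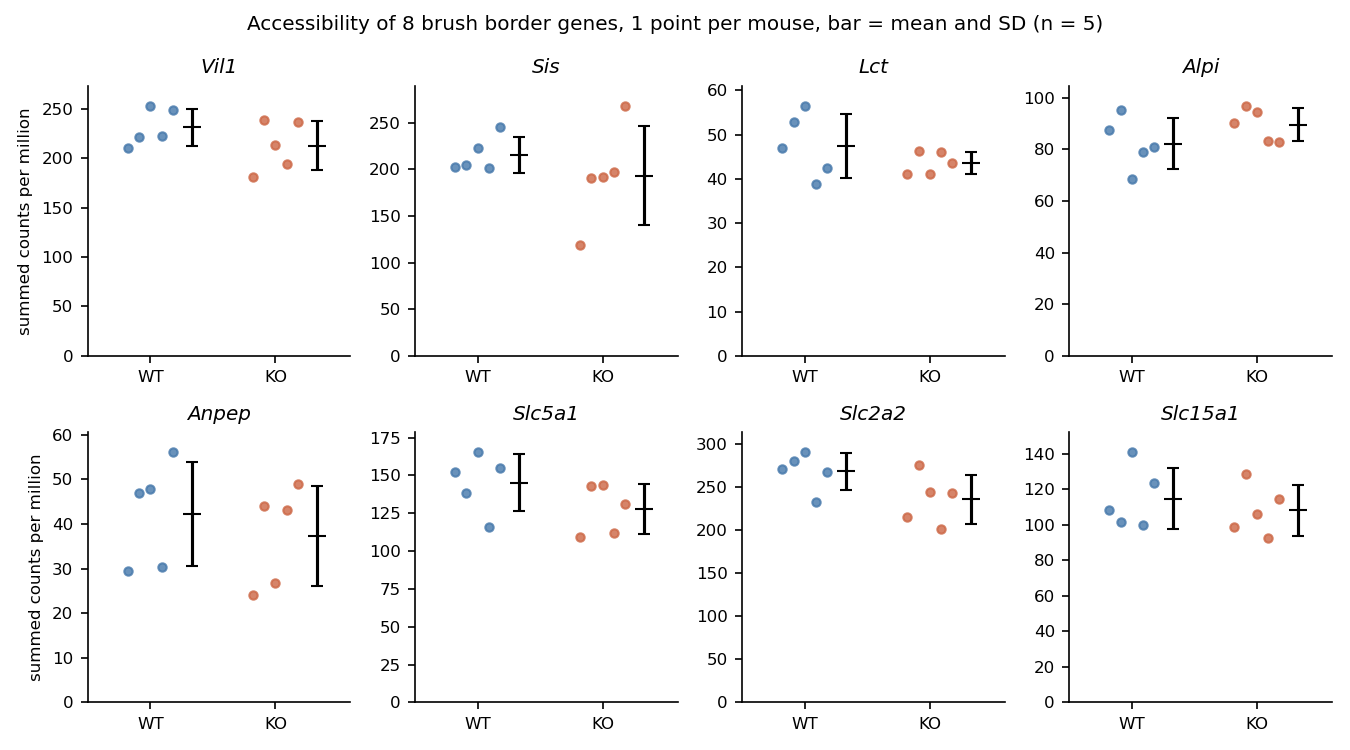
Summed CPM of each of the 8 genes in 5 WT and 5 KO mice, with 1 point per mouse in the order WT1 to WT5 and KO6 to KO10 and a bar for the mean and SD. In 7 genes at least 3 KO mice sit inside the WT range, and in Sis 4 KO mice sit below the WT mice and KO10, at 268 CPM, above them.

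At an adjusted p under 0.05, 0 of the 8 sums passed in edgeR, and 0 passed in DESeq2. Over all gene IDs tested, 2.9% were higher and 1.01% lower in KO mice at that threshold. This split of 1065 higher and 369 lower was 2120 and 92 with the scaling factors of the peak fit, 752 and 141 with total counts and 24 and 1 with 1 surrogate variable. The total of 1434 was 0 without KO6, KO9, KO10, WT3 or WT5 and 3311 without WT2. At an unadjusted p under 0.05, 0 of 8 members passed in edgeR, against 27.5% of all gene IDs. In DESeq2 1 member (Slc2a2) passed, and the share of all gene IDs in that fit was not determined. The 8 intervals together ran from 0.663-fold (the lower end for Anpep) to 1.24-fold (the upper end for Alpi), so a 2-fold change of a summed member lay outside all of them.

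Of the 8 log2 fold changes, 7 were below 0, and the median was -0.14. This is close to the pattern of gene IDs with a high summed CPM in general, a level that also rises with the number of peaks. All 8 members were in the top 25% of tested gene IDs by mean CPM, between percentiles 86.5 (Anpep) and 99.8 (Slc2a2 and Vil1). In that group of 9179 gene IDs, 82.9% were below 0 and the median was -0.12, whereas over all 36715 gene IDs 50.5% were below 0 and the median was 0.00. In the lowest 25%, 22.9% were below 0 and the median was 0.29. Vil1, Sis, Anpep, Slc5a1 and Slc2a2 were below the median of the top 25% and Lct, Alpi and Slc15a1 were above it.

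The size of these values depended on the scaling, and so did the sign of Slc15a1. With loess offsets, a scaling of each library that varies with abundance, the top 25% had a median of -0.01 and the members of -0.05, and Slc15a1 turned to 0.02. With the scaling factors of the fit over peaks, the median of all gene IDs was 0.08, that of the top 25% -0.03 and that of the members -0.06. With 1 surrogate variable the members' median was farther from 0, at -0.22, against -0.13 for the top 25%, and 6 of the 8 were below the latter. Alpi was at 0.24 with loess offsets and at 0.21 with the factors of the peak fit, both at an unadjusted p under 0.05 (0.0119 and 0.0259 from edgeR) and not after adjustment (0.143 and 0.137).

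**Figure D2:**
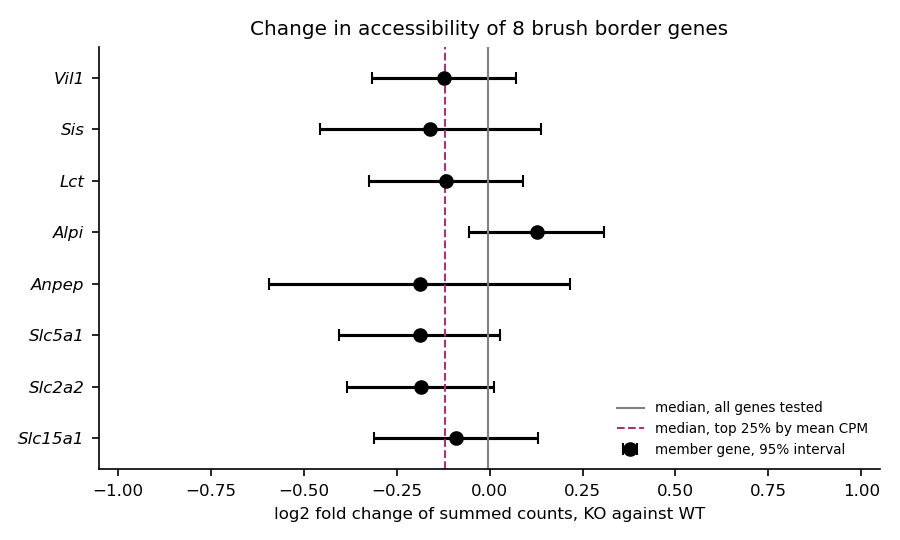
Log2 fold change of summed counts (KO against WT) of the 8 genes from edgeR, with 95% intervals, beside the median of all gene IDs tested (solid line, 0.00) and that of the top 25% by mean CPM (dashed line, -0.12). Every interval includes 0, and 7 of the 8 points are below 0, near the dashed line.

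Mice of the same genotype differed to an unequal degree between members. The coefficient of variation (CV) within genotypes was 28.9% for Anpep and 20.2% for Sis, at percentiles 98.6 and 96.4 of the top 25% of gene IDs by mean CPM, whose median CV was 9.73%. Alpi, Vil1 and Slc2a2 were close to that median, with 9.86%, 10.1% and 10.3%. Lct, Slc5a1 and Slc15a1 lay between, with 11.6%, 13.0% and 14.1%. For Sis the CV was 8.76% in WT mice and 27.3% in KO mice, and for Lct it was 15.3% and 5.86%.

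KO6 was the lowest of the 10 mice in 4 of the 8 genes and averaged 0.31 below the gene means on the log2 CPM scale. In Sis it was 0.75 below and in Anpep 0.67 below, while in Alpi it was 0.08 above. WT3 was the highest mouse in 5 genes and the lowest in Alpi. KO9 was the lowest in Slc2a2 and Slc15a1. Which features of these mice or libraries go with these deviations was not tested.

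**Figure D3:**
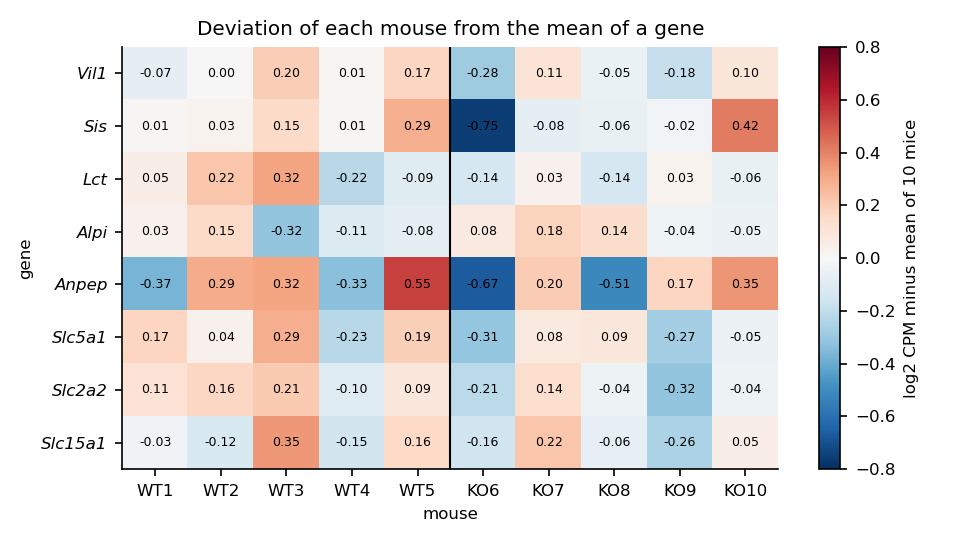
Log2 CPM of each mouse minus the mean of the 10 mice (color and printed value), for the 8 genes (rows) and the mice (columns, with a line between WT and KO). KO6 has the lowest values, -0.75 in Sis and -0.67 in Anpep, and WT3 is above the mean in 7 genes and at -0.32 in Alpi.

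Single peaks were then tested in a fit over the 80700 peaks that passed the filter on low counts. Of the 116 member peaks, 82 passed it and 34 did not. The log2 fold change was above 0 in 28 and below 0 in 54 of the 82, with a median of -0.07, against 0.00 over all peaks tested. No member peak passed an adjusted p of 0.05, with 0.172 as the lowest adjusted p from edgeR, and no peak of the whole table did (0%, lowest adjusted p = 0.0562). In DESeq2, 0 member peaks and 555 of all peaks passed. Of all peaks, 870 passed with at least 10 counts in every mouse, 373 with no filter and 1941 without WT2, with 0 member peaks in each case. At an unadjusted p under 0.05, 2 member peaks (2.44%) were higher in KO mice, against 10.3% of all peaks tested, and 7 (8.54%) were lower, against 5.6%. These 9 peaks are described next.

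In 2 of the 9, all 5 KO mice were below all 5 WT mice. These were 2 of the 82 tested member peaks (2.44%), against 1.19% of all peaks tested. In 0 of the 82 were all KO mice above all WT mice, against 1.83% of all peaks. Peak 8 of Vil1 had 12.1, 10.9, 10.6, 11.2 and 12.1 CPM in WT mice and 9.22, 9.28, 9.49, 9.33 and 9.95 CPM in KO mice, a narrow gap between tight groups. Its log2 fold change was -0.27 (SE 0.124, adjusted p = 0.292 from edgeR; exact permutation test, p = 0.00794, the smallest p this design can give). Peak 22 of Sis had 3.24, 2.49, 3.48, 3.24 and 3.05 CPM in WT mice and 0.802, 2.11, 2.28, 1.62 and 2.43 CPM in KO mice. At between 4 and 48 counts in a mouse it was a weak peak, with a log2 fold change of -0.77 (SE 0.270, adjusted p = 0.172 from edgeR; exact permutation test, p = 0.00794).

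The other 5 lower peaks overlapped between genotypes. Beside peak 8, peak 7 of Vil1 had 9.13, 10.9, 8.43, 10.7 and 9.59 CPM in WT mice and 8.42, 6.54, 6.64, 8.72 and 7.28 CPM in KO mice, with 4 KO mice below the WT range (log2 fold change -0.36, adjusted p = 0.237 from edgeR). Peaks 3 and 7 of Sis had log2 fold changes of -0.29 and -0.47 (adjusted p = 0.303 and 0.275), each with 3 KO mice below the WT range. Peak 3 of Slc5a1 had 43.3, 34.0, 49.2, 34.8 and 48.0 CPM in WT mice and 29.7, 29.7, 38.7, 38.3 and 37.1 CPM in KO mice. With a log2 fold change of -0.28 (adjusted p = 0.264) it was the strongest of the 9 peaks. Peak 3 of Slc15a1 had a log2 fold change of -0.37 (adjusted p = 0.277), with 1 KO mouse below the WT range.

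Both higher peaks were weak and lay in the disaccharidase genes. Peak 32 of Sis had 2.80, 3.63, 2.59, 1.89 and 2.73 CPM in WT mice and 3.41, 3.79, 3.61, 4.26 and 4.61 CPM in KO mice (log2 fold change 0.55, SE 0.222, adjusted p = 0.231 from edgeR). Peak 2 of Lct had 1.62, 3.17, 2.59, 1.62 and 1.52 CPM in WT mice and 3.61, 2.95, 1.71, 4.87 and 2.67 CPM in KO mice (log2 fold change 0.65, SE 0.302, adjusted p = 0.301, and 0.43 without KO9). WT and KO mice overlapped in both. By permutation, the Sis peak had p = 0.0238 and the Lct peak p = 0.111 (exact two-sided tests).

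The strongest peak of each gene, by mean CPM over all mice, did not reach an unadjusted p of 0.05 in any gene in edgeR. Under alternatives, peak 1 of Lct did so with no filter and without WT4, and peak 3 of Alpi with loess offsets, but their adjusted p from edgeR was 0.258, 0.348 and 0.342. It was peak 1 of 9 in Vil1 and peak 1 of 17 in Lct, at the 5′ side, and peak 2 in Slc5a1 and Slc2a2. In Slc15a1 it was peak 5 of 12 and in Alpi peak 3 of 5. In Sis it was peak 36 of 39, near the 3′ side, also with any 1 mouse left out. Within the WT mice alone, however, peak 15 of Sis was stronger, with a mean of 16.1 CPM against 14.6 CPM for peak 36. In the other 7 genes the same peak was the strongest in WT and in KO mice. Peak 1 of Vil1 was the strongest of all 116, at 128 ± 10.3 CPM for WT and 123 ± 12.3 CPM for KO (SD, n = 5 each). Its log2 fold change was -0.05 (adjusted p = 0.827 from edgeR). In Sis, peak 36 had 13.7, 13.4, 12.2, 16.7 and 17.0 CPM in WT mice and 10.2, 15.6, 11.4, 19.1 and 33.3 CPM in KO mice. The log2 fold change of 0.26 (adjusted p = 0.617) was -0.07 without KO10, which had the value of 33.3 CPM.

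Other strongest peaks had log2 fold changes of -0.25 in Lct (-0.08 without WT3), 0.14 in Alpi, -0.10 in Anpep, -0.03 in Slc5a1, -0.06 in Slc2a2 and 0.07 in Slc15a1. The adjusted p from edgeR lay between 0.467 and 0.911 for these 6. Anpep shows the effect of scaling on its own, since the same counts gave -0.10 in the fit over peaks and -0.19 in the fit over genes.

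Within genes, the peaks did not all point the same way. In Alpi all 5 peaks were above 0, from 0.14 to 0.39, and in Slc5a1 all 4 tested peaks were below 0, from -0.28 to -0.03. In Slc2a2, 12 of 15 tested peaks were below 0. Vil1 had 5 of 7 below 0, Slc15a1 had 5 of 9 and Lct had 5 of 10. Peaks of 1 gene share the mice and in part the libraries' deviations, so these counts are not independent.

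In Sis, the tested peaks were split along the gene, at a boundary placed after the values were seen and therefore not tested. Among peaks 1 to 27, on the 5′ side, 21 of 22 tested were below 0, with a median of -0.20. Among peaks 28 to 39, on the 3′ side, 8 of 9 tested were above 0, with a median of 0.10. The count on the 3′ side rested on single mice and on the scaling. It was 4 of 9 without KO10 (median -0.07), 5 of 9 without KO9 or with total counts, and 4 of 9 with no filter. Without KO6 it was 9 of 9, with a median of 0.26. On the 5′ side the count below 0 was 22 of 22 without KO10 (median -0.33), 16 of 22 without KO6 (median -0.08) and 17 of 22 without KO7. As a share of all Sis counts, peaks 28 to 39 held 27.9%, 35.4%, 29.3%, 31.8% and 31.3% in WT mice and 32.9%, 35.3%, 32.9%, 38.5% and 40.4% in KO mice. KO9 and KO10 were above the WT range, and the other 3 KO mice were inside it. This share, which needs no scaling between mice, averaged 31.1% ± 2.84 for WT and 36.0% ± 3.39 for KO (SD, n = 5 each). It uses the same boundary, so a higher share in KO mice follows in part from where the boundary was placed. It is no separate support for the split.

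**Figure D4:**
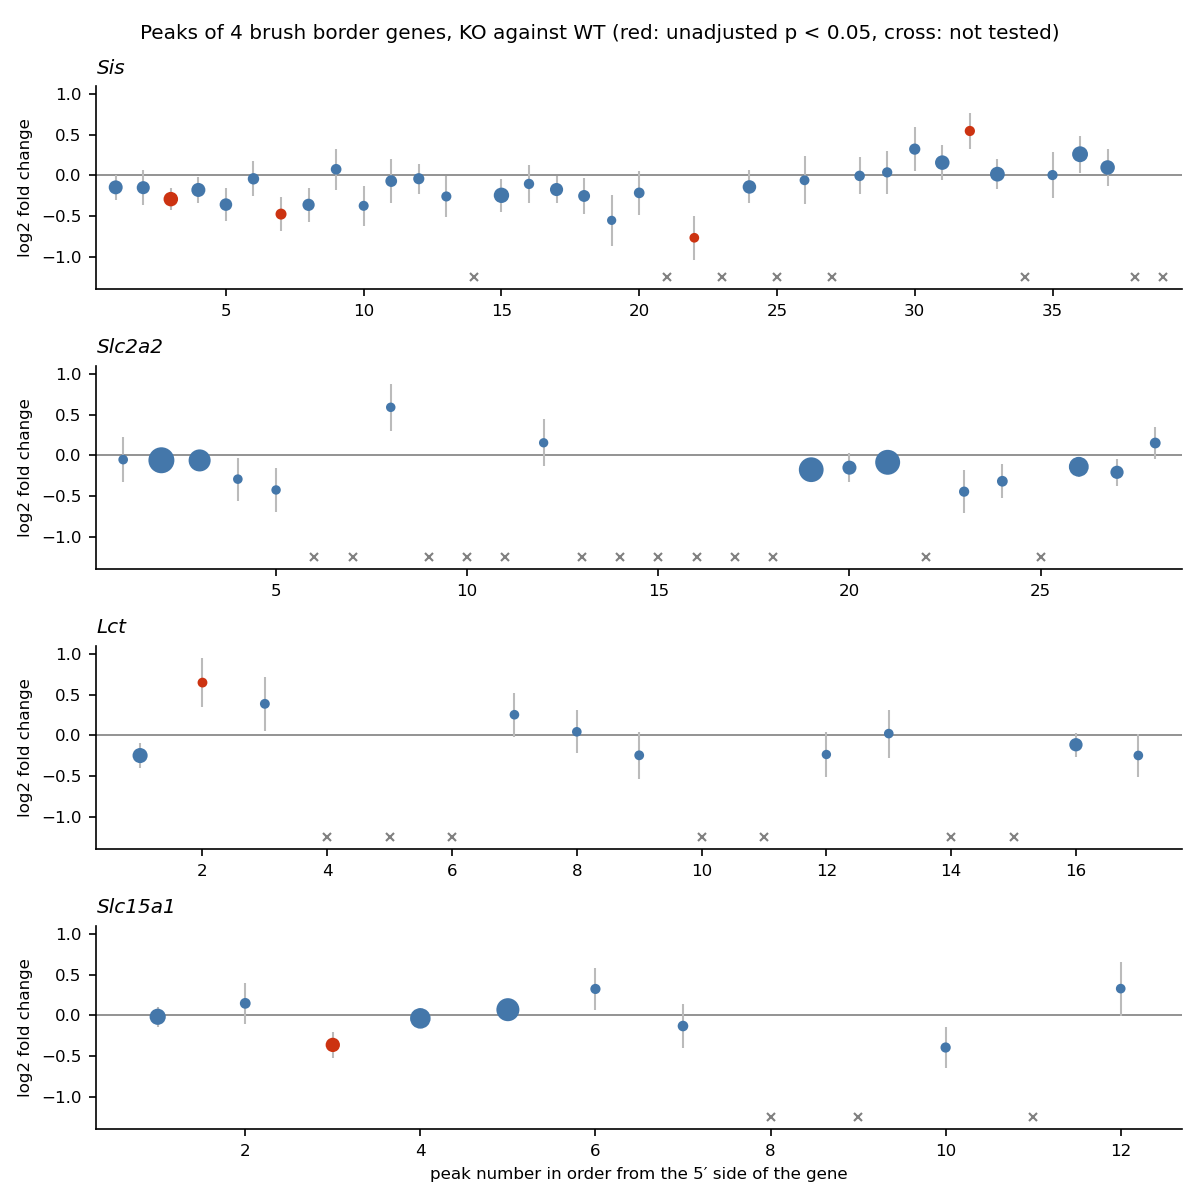
Log2 fold change (KO against WT) of the peaks of Sis, Slc2a2, Lct and Slc15a1 in order from the 5′ side, with point area rising with mean CPM, bars for the standard error, red for an unadjusted p under 0.05 and crosses for peaks with too few counts to be tested. In Sis, 21 of 22 tested points among peaks 1 to 27 are below 0 and 8 of 9 among peaks 28 to 39 are above 0 (4 of 9 without KO10), a boundary placed after the values were seen.

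How a gene's counts were divided among its peaks was compared through the share of the strongest peak, which does not depend on library size. In Vil1 this peak held 50.9% ± 2.03 of the counts for WT and 50.4% ± 0.815 for KO (SD, n = 5 each). In Alpi the shares were 52.8% ± 4.47 and 50.1% ± 1.33, and in Slc5a1 41.0% ± 2.01 and 43.1% ± 1.48. Slc15a1 had 33.0% ± 1.57 and 34.9% ± 1.21, and Lct had 29.5% ± 4.79 and 25.7% ± 1.69. In Slc2a2 the strongest of 28 peaks held 19.7% ± 0.990 and 20.2% ± 2.08, and 3 peaks together held at least 50% of the counts. Sis was the most evenly divided, with 10 peaks needed to reach 50%. Its peak 36, the strongest over all mice but not in WT mice alone, held 6.26% ± 0.870 and 7.76% ± 1.97, and the difference of 1.5 percentage points was 0.766 without KO10. No share passed a p of 0.05 between genotypes. The exact two-sided permutation p-values were 0.0873 for Slc15a1, 0.111 for Slc5a1, 0.135 for Lct, 0.167 for Sis, 0.214 for Alpi, 0.611 for Vil1 and 0.643 for Slc2a2.

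**Figure D5:**
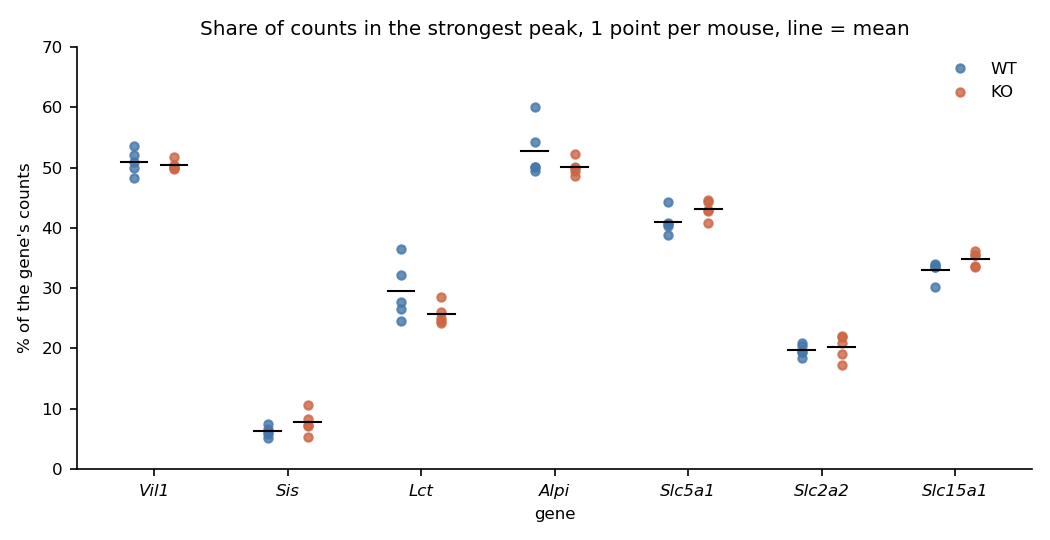
Percent of a gene's counts that fell in its strongest peak, for the 7 genes with more than 1 peak, with 1 point per mouse and a line for the mean of WT and KO mice. The order of the genes is the same in both genotypes apart from Vil1 and Alpi, and the points of WT and KO mice overlap in each gene.

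Of 51 other brush border genes listed by symbol, 2 were paired with an ID in the sources used here, so the list cannot serve as a background for the pathway. The study's supplement lists transcripts by differential expression between the genotypes, so a match through it was not blind to genotype. Tmprss15 (ENSMUSG00000022857) encodes enteropeptidase, which activates trypsinogen. Its 17 peaks had 38.7, 23.4, 18.2, 27.4 and 20.8 CPM in WT mice and 30.9, 28.4, 25.4, 26.4 and 25.7 CPM in KO mice, with the KO values inside the WT range. The log2 fold change was 0.10 (SE 0.157, adjusted p = 0.686 from edgeR; exact permutation test, p = 0.5). Slc15a2 (ENSMUSG00000022899), the gene of the peptide transporter PEPT2, had 1 peak with between 0 and 7 counts in a mouse, too few to be tested.

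The mean log2 CPM of the 8 genes was compared with that of 16956 other gene IDs with a mean count of at least 100. The closest were ENSMUSG00000097170 and ENSMUSG00000043079, with Pearson's r of 0.987 and 0.986 over the 10 mice. The median r over all candidates was 0.29, and 4.57% had an r of at least 0.8. The mice share libraries and scaling across gene IDs, so these values describe the 10 libraries.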

How the data were processed

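ATAC-seq counts of sorted IECs from 5 WT and 5 KO mice were analysed, with groups and mouse numbers from the labels. Reads were paired, of 75 bp. For 1 peak set (mm10), the authors deposited whole-number counts without normalization. How reads were aligned and deduplicated, whether the Tn5 offset was applied, how peaks were called and how each got its gene are not given in the sources used here, and each can change the counts. A second set of 10 columns, normalized by the authors, was not used. Of 246501 entries, 22 held no value and 594 of the other 246479 had no gene ID and were left out.

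Counts were summed per gene ID, filtered with filterByExpr, scaled by TMM and tested with edgeR 4.0.16 (glmQLFit, glmQLFTest, R 4.3.3) on genotype alone, with p-values adjusted by Benjamini-Hochberg over all features, and likewise per peak. The peak and gene fits have their own scaling factors. Single values were compared by exact two-sided permutation over 252 labelings of the mice, on log2 CPM with a prior count of 2. The fits were tested on simulated data. Alternatives were DESeq2 1.42.0, total counts, RLE factors, loess offsets (span 0.3), no filter, at least 10 counts in every mouse, 1 surrogate variable (sva 3.50.0), the strongest peak in place of the sum, a prior count of 0.5, leaving out each mouse and, chosen after seeing the data, the factors of the peak fit for the sums.

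The members and lists were chosen with earlier results of these data known. All 8 members were named, with their strongest peak and each peak at an unadjusted p under 0.05. The gene IDs of 2 list genes came from the study's supplement. Promoters are those of RefSeq (GRCm38.p6), and 8 of 8 members matched by symbol. Nothing says that reads are independent molecules, so depth covers counting error only. Each mouse is a separate animal.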

Additional observations from a re-analysis of the deposited data

Results flagged for a closer look

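In 64 groups of 5 mice examined (the sums, the named peaks and the strongest-peak shares of the members), 2 held a mouse far from the others. Chance gives about 1 in 20 groups, so 2 of 64 is not more than chance would give. The groups share counts and are not independent. In Vil1, the strongest peak held 51.8% of the counts in KO8 and between 49.8% and 50.4% in the other KO mice. In Slc15a1, it held 30.2% in WT4 and between 33.5% and 33.9% in the other WT mice. Both are values of single mice, and their cause was not tested.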

How the results depend on the processing

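No member passed an adjusted p of 0.05 in any of 152 alternative values of the 8 sums (lowest adjusted p = 0.0952 from edgeR, Slc2a2 without KO7), and 149 kept their sign. The exceptions were Slc15a1 with loess offsets (0.017) and, by the strongest peak in place of the sum, Slc15a1 (0.068) and Sis (0.261). Members at an unadjusted p under 0.05 numbered 0, but 1 with 1 surrogate variable (Lct), DESeq2 or no filter (Slc2a2), loess offsets or the factors of the peak fit (Alpi), and 0 to 2 with a mouse left out (2 without KO7 or WT4, 1 without KO8 or KO10). All gene IDs past an adjusted p of 0.05 numbered 1434, against 25 with 1 surrogate variable, 2188 with DESeq2, 304 with loess offsets, 893 with total counts and 2212 with the factors of the peak fit, and with a mouse left out 0 (without KO6, KO9, KO10, WT3 or WT5) to 3311 (without WT2), with 342 without WT4, 867 without KO8 and 2234 without KO7. For all peaks the main count of 0 became 555 with DESeq2, 870 with at least 10 counts in every mouse and 373 with no filter, and 0 to 1941 with a mouse left out (1941 without WT2, 65 without WT1, 59 without KO7 and 0 without any other). Member peaks at an unadjusted p under 0.05 and higher in KO mice numbered 2, against 0 with DESeq2 or total counts, 1 with no filter and 0 (without WT4) to 3 with a mouse left out (1 without KO7 or WT5). Lower ones numbered 7, against 4 with DESeq2, 3 with at least 10 counts in every mouse, 20 with no filter and 2 (without WT5) to 9 with a mouse left out (3 without KO6, 4 without KO8, KO9 or WT3). The share of all peaks was not determined under these alternatives, so their counts cannot be read as particular to the members. With no filter, peak 3 of Alpi was at -0.012 and peak 5 of Slc15a1 at -0.085.

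With a mouse left out, the log2 fold change of the sums ranged from -0.302 to -0.045 (without WT5) for Anpep, from -0.166 to -0.002 (without WT3) for Slc15a1, from -0.185 to -0.039 (without WT3) for Lct, from -0.306 to -0.028 (without KO6) for Sis, from -0.169 to -0.071 (without KO6) for Vil1, from 0.072 (without WT3) to 0.177 for Alpi, from -0.262 to -0.132 for Slc5a1 and from -0.25 to -0.127 for Slc2a2. For peaks it ranged from -0.336 to -0.081 for peak 1 of Lct, from -0.099 to -0.012 for peak 1 of Vil1, from 0.1 to 0.175 for peak 3 of Alpi, from -0.073 to 0.405 for peak 36 of Sis, from -0.218 to 0.017 for the peak of Anpep, from -0.109 to 0.006 for peak 2 of Slc5a1, from -0.131 to 0.003 for peak 2 of Slc2a2 and from -0.009 to 0.146 for peak 5 of Slc15a1. For peak 2 of Lct it ranged from 0.43 (without KO9) to 0.806, and the other 8 peaks at an unadjusted p under 0.05 stayed within 1.5 times of their value. The difference in strongest-peak share, in percentage points, then ranged from -1.19 to 0.146 in Vil1, from 0.766 to 2.12 in Sis, from -5.08 to -2.11 in Lct, from -3.56 to -0.914 in Alpi, from 1.49 to 2.86 in Slc5a1, from 0.0308 to 1.27 in Slc2a2 and from 1.15 to 2.19 in Slc15a1. It passed an exact permutation p of 0.05 in Sis without KO8 (p = 0.0476), Lct without KO7 (p = 0.0476), Slc5a1 without WT2 (p = 0.0317) and Slc15a1 without KO6 (p = 0.0476). Over peaks that passed the filter, the difference in Slc15a1 was 2.09 (exact permutation p = 0.0397). The causes were not tested. WT mice had more counts than KO mice by median, so precision at weak peaks was lower for KO. No paired analysis was possible because no replicate number occurs in both genotypes.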
